A study of Homo sapiens with 10 samples.

Results

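Transcripts of the cyclin-dependent kinase (CDK) inhibitors and of the RB family were examined in MM.1S, an established human multiple myeloma cell line. The 10 genes are CDKN1A, CDKN1B, CDKN1C, CDKN2A, CDKN2C, CDKN2D, CDKN3, RB1, RBL1 and RBL2, chosen by name, and 9 of them, with 22 probe sets, were measured among the 19775 genes of the array. CDKN2C was named for no probe set in the annotation used and is not analysed here. Each gene was read by its leading probe set, the one with the highest mean signal over the 10 arrays, and the other probe sets of the same gene are given beside it.

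Cells were infected with lentivirus carrying a short hairpin RNA, and total RNA was taken 48 h later. The 5 groups of 2 arrays each were a hairpin against luciferase (shLuc, the control), shHDAC3#1 and shHDAC3#2 against the histone deacetylase HDAC3, and shDNMT1#1 and shDNMT1#2 against the DNA methyltransferase DNMT1. All groups therefore shared the cell line, the virus and the time point, and differed in the hairpin. The design text sets both targets against shLuc, while the label of its arrays names it only for the HDAC3 hairpins. Changes in both knockdowns share the values of these 2 control arrays, and the sources used here do not say whether the DNMT1 arrays were infected and hybridized together with the others. The labels number the arrays of a group without saying whether they stand for separate cultures. The p-values therefore cover the spread from array to array, which could be technical only.

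CDK inhibitors restrain the kinases that drive the cell cycle. The Cip/Kip proteins p21 (CDKN1A), p27 (CDKN1B) and p57 (CDKN1C) bind complexes of cyclins with CDKs. The INK4 proteins, among them p16 (CDKN2A) and p19 (CDKN2D), bind CDK4 and CDK6 and keep D cyclins from activating them. Active CDKs phosphorylate the pocket proteins RB1, p107 (RBL1) and p130 (RBL2), which in their unphosphorylated form hold E2F factors and silence genes of S phase and mitosis. In plasma cells and myeloma this pathway sits downstream of the D cyclins, one of which is highly expressed in most tumours.

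The promoters of CDKN1A and CDKN1B are shown because these genes, which encode related inhibitors, changed in opposite directions. Both are RefSeq windows of GRCh38.p14 on the plus strand, from 250 bases before to 50 bases after an annotated start. CDKN1A lies at chr6:36678464-36678763 and CDKN1B at chr12:12717118-12717417. Capitals mark GC boxes, the letters GGGCGG on either strand, which factors of the Sp1 family are known to bind.
CDKN1A: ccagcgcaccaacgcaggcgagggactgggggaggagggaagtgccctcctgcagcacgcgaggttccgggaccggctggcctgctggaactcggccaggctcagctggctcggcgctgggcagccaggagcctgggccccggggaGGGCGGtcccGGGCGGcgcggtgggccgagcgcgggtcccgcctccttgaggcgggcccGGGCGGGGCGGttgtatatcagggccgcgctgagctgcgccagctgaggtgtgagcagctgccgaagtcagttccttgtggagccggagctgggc
CDKN1B: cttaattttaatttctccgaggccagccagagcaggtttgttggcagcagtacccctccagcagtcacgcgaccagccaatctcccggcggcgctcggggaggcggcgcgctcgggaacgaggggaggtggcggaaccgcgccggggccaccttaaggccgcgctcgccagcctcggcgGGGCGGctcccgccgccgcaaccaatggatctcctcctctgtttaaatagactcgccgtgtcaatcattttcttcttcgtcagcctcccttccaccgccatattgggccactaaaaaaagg

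The CDKN1A window held 4 GC boxes, starting 104, 94, 45 and 40 bases before the start, of which the last 2 overlap. The CDKN1B window held 1, starting 71 bases before the start. Of 35116 RefSeq windows of the same length, 45.0% held at least 1 GC box and 9.06% at least 4. The number of CG dinucleotides, the letters that DNMT1 methylates, was 29 in each of these windows, against a median of 14 over all windows. No match to the E2F letters TTTCCCGC or TTTGGCGC, or to TTTGAA, the cell cycle homology region, was present in either window. These counts describe the letters only, and no methylation or binding was measured.

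The knockdown was checked first. The HDAC3 transcript stood at 44.2% of its shLuc level in HDAC3 knockdown (-1.18 ± 0.16 SE on the log2 scale), and the DNMT1 transcript at 19.1% in DNMT1 knockdown (-2.39 ± 0.10 SE). DNMT1 was also lower in HDAC3 knockdown, at 52.7% of control. HDAC3 stood at 77.7% in DNMT1 knockdown (adjusted p = 0.11) and was called lower with shDNMT1#2 (65.8%, adjusted p = 0.019) but not with shDNMT1#1 (91.7%, adjusted p = 0.73). Signals were spread more widely on the control arrays (SD 1.943 and 1.929) than on the 8 others (1.843 to 1.915). ACTB, read at its 3' and its 5' end as a control of RNA integrity, gave a 3' excess of 0.985 and 1.02 in shHDAC3#1 and of 0.635 to 0.806 elsewhere. Of 8 plasma cell markers, 7 were above 6 (log2 signal) on all arrays, among them SDC1, TNFRSF17 and XBP1, whereas CD38 ranged from 5.89 to 6.80. A signal above 6 did not single out plasma cell markers. It was also seen for 2 of 4 T cell, 2 of 4 myeloid, 1 of 2 erythroid, 0 of 3 epithelial and 2 of 3 fibroblast markers. Each group's arrays read the RNA of a whole culture, so fewer cells with a transcript and less of it per cell cannot be told apart.

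Most of the measured members changed in each knockdown, and they did not move as a block. In HDAC3 knockdown, the mean of both hairpins against shLuc, 6 of 9 genes were called at an adjusted p under 0.05 (limma with Benjamini-Hochberg adjustment over all genes), where 19.2% of all genes were called. CDKN1A and CDKN2D rose (3.96% of all genes did), and CDKN1B, CDKN3, RB1 and RBL2 fell (15.3% of all genes did). In DNMT1 knockdown 7 of 9 were called, where 20.2% of all genes were called. There CDKN1A and CDKN1C rose (6.66% of all genes did), and CDKN1B, CDKN2A, CDKN3, RB1 and RBL2 fell (13.5% of all genes did). The median log2 change of the 9 genes was -0.20 in HDAC3 and -0.25 in DNMT1 knockdown, beside 0.05 and 0.07 over all genes. RBL1 was called in neither with its leading probe set. Among genes with a mean signal of at least 5, 6 of 9 members were called in HDAC3 and 7 of 9 in DNMT1 knockdown. The share of all such genes called was higher than over all genes, at 27.8% and 27.4%. With the hairpin counted as a random block, so that the difference between hairpins of 1 target enters the error, 0 of 9 members were called in either knockdown, where 0.369% of all genes were called in HDAC3 and 0.157% in DNMT1 knockdown. With the array SD as a covariate, 0 were called in HDAC3 and 1, CDKN1A, in DNMT1 knockdown, where 0.576% and 0.602% of all genes were called. Without shLuc replicate 1, 3 were called in HDAC3 and 4 in DNMT1 knockdown, where the share of all genes was 7.13% and 6.9%.

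**Figure D1:**
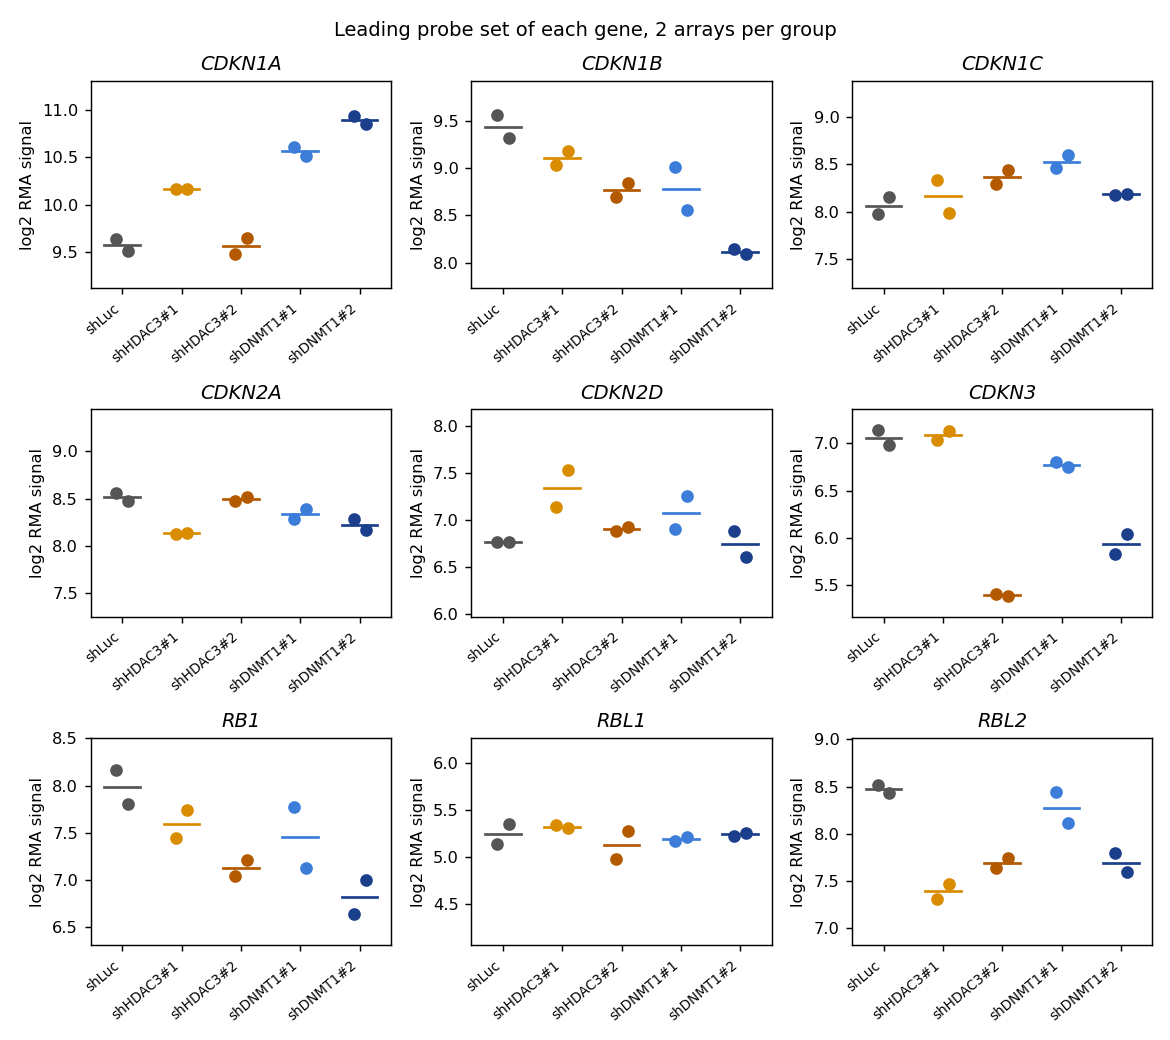
Log2 RMA signal (y axis) of the leading probe set of each of the 9 measured genes in the 5 groups (x axis). Points are single arrays, lines are means of 2 arrays, and every panel spans 2.2 log2 units around its own middle. CDKN1A is highest in shDNMT1#2, CDKN1B falls to its lowest values there, and CDKN3 is lowest in shHDAC3#2.

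**Figure D2:**
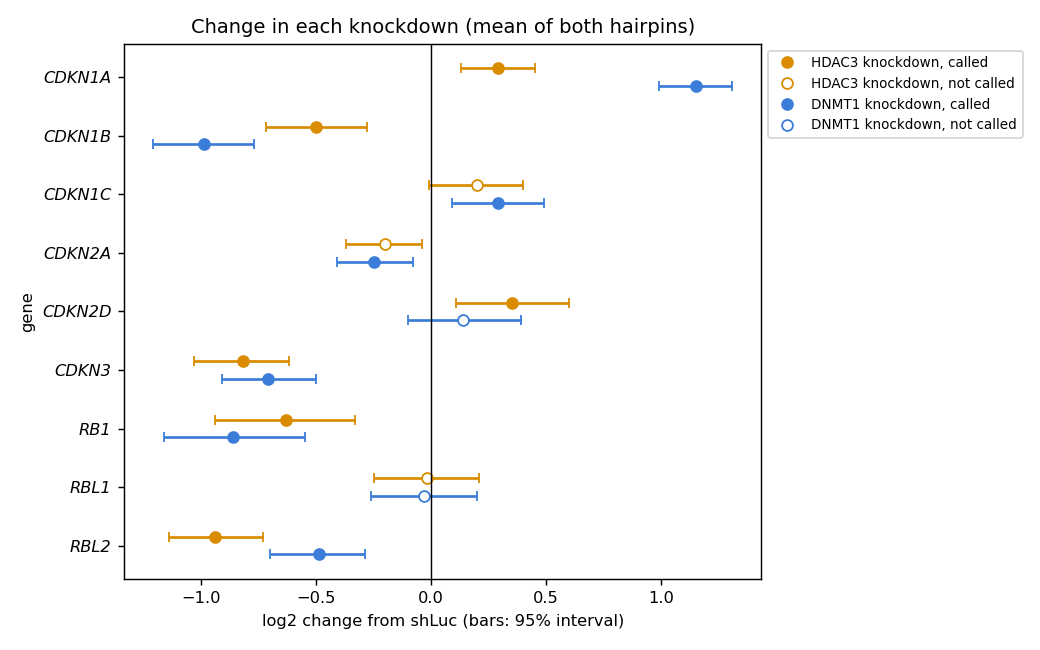
Log2 change from shLuc (x axis) of each gene (y axis) in HDAC3 and DNMT1 knockdown, each the mean of 2 hairpins, with the 95% interval from limma. Filled points are called and open points are not; CDKN1A lies at 1.15 in DNMT1 knockdown and 0.29 in HDAC3 knockdown.

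CDKN1A, whose product p21 arrests cells after p53 activation and during differentiation, was read by 1 probe set. Its log2 signal was 9.64 and 9.51 in the shLuc arrays, 10.17 and 10.16 in shHDAC3#1, and 9.48 and 9.65 in shHDAC3#2. In shDNMT1#1 it was 10.61 and 10.52, and in shDNMT1#2 it was 10.94 and 10.85. All 4 DNMT1 arrays and both shHDAC3#1 arrays thus lay above both controls, while the shHDAC3#2 arrays straddled them. How many of all genes separate like this was not counted, here or for the members below. Such placements therefore describe the values only. In DNMT1 knockdown CDKN1A rose 2.22-fold (1.15 ± 0.08 SE on the log2 scale, adjusted p = 2.5e-09), and in HDAC3 knockdown 1.22-fold (0.29 ± 0.08 SE, adjusted p = 0.01). The HDAC3 call was lost without shLuc replicate 2 (0.22, adjusted p = 0.13), with the array SD as a covariate (0.54, adjusted p = 0.071) and with the random hairpin block (adjusted p = 0.55). The DNMT1 call was kept with the covariate (1.42, adjusted p = 5.6e-06) and lost with the random block (adjusted p = 0.054).

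Hairpin by hairpin, the order of CDKN1A levels was shDNMT1#2, shDNMT1#1, shHDAC3#1, and then shLuc and shHDAC3#2 together. The log2 change was 1.32 with shDNMT1#2 (2.49-fold, adjusted p = 6.3e-10) and 0.99 with shDNMT1#1 (1.98-fold, 95% interval 0.80 to 1.17, adjusted p = 2.1e-07). It was 0.59 with shHDAC3#1 (1.51-fold, interval 0.41 to 0.78, adjusted p = 3.8e-05) and -0.01 with shHDAC3#2 (-0.20 to 0.17, adjusted p = 0.96). The upper bound of the interval for shHDAC3#2 lay below the lower bound for shHDAC3#1.

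Differences between neighbours in this order were tested in the same model. shDNMT1#2 exceeded shDNMT1#1 by 0.33 ± 0.09 SE (adjusted p = 0.017), and shDNMT1#1 exceeded shHDAC3#1 by 0.40 ± 0.09 SE (adjusted p = 0.0036). In each comparison 12.0% of all genes were called. The second difference, between targets, was picked from the observed order and was not examined under the alternative settings. The first of these was not called without shDNMT1#1 replicate 2, shDNMT1#2 replicate 1 or shDNMT1#2 replicate 2, with differences of 0.29, 0.29 and 0.37. shHDAC3#2 lay below shHDAC3#1 by 0.60 on the log2 scale (-0.60 ± 0.09 SE, adjusted p = 4.1e-05). The HDAC3 transcript itself was similarly placed with both of these hairpins, at 46.9% of control with shHDAC3#1 and 41.6% with shHDAC3#2. DNMT1 differed more, at 43.5% and 63.8%. shHDAC3#1 was also the group with the largest 3' excess of ACTB, and the part of RNA integrity in the CDKN1A result was not tested. On the DNMT1 arrays the excess was 0.635 to 0.806 for ACTB, on either side of shLuc (0.702 and 0.751). For GAPDH, a second such control, it was 0.425 to 0.508 on the DNMT1 arrays and 0.528 and 0.514 in shHDAC3#1, all above shLuc (0.421 and 0.365), and 0.356 and 0.347 in shHDAC3#2. The groups with higher CDKN1A were thus those with a higher GAPDH excess, and its part was not tested either.

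The direct difference between the knockdowns, in which shLuc cancels, was 0.86 ± 0.06 SE for CDKN1A, 1.82-fold higher in DNMT1 than in HDAC3 knockdown (adjusted p = 7e-09). The 4 DNMT1 arrays all lay above the 4 HDAC3 arrays. In that comparison 3 of 9 members were called, where 9.59% of all genes were called. The other called members were CDKN1B, lower in DNMT1 knockdown (-0.49 ± 0.09 SE, adjusted p = 0.00055), and RBL2, higher there (0.44 ± 0.08 SE, adjusted p = 0.00076). With the random hairpin block 0 of 9 were called in this comparison, where 0.0303% of all genes were called, and the adjusted p was 0.14 for CDKN1A, 0.81 for CDKN1B and 0.79 for RBL2.

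**Figure D3:**
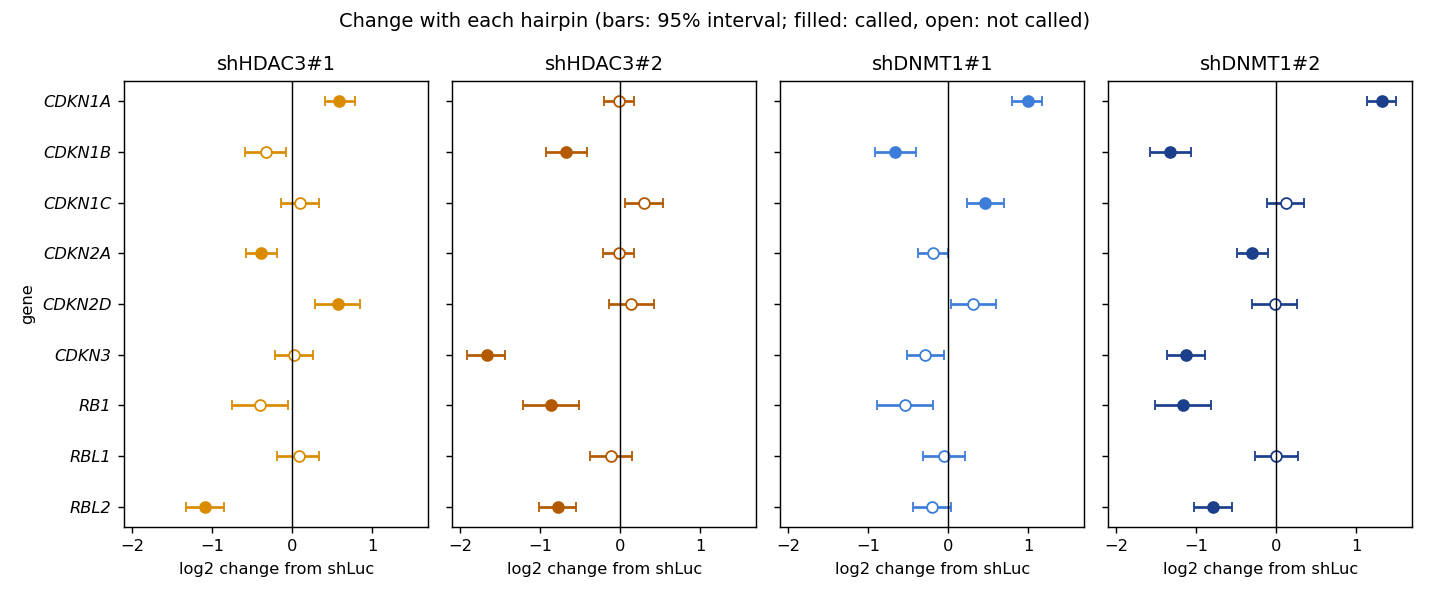
Log2 change from shLuc (x axis) of each gene (y axis) with each of the 4 hairpins, one panel per hairpin, with the 95% interval from limma. Filled points are called and open points are not; CDKN1A is at 0.59 and -0.01 with the HDAC3 hairpins and at 0.99 and 1.32 with the DNMT1 hairpins.

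CDKN1B, which encodes p27, the inhibitor that accumulates in quiescent cells, went the other way. Its log2 signal was 9.56 and 9.32 in shLuc, 9.03 and 9.18 in shHDAC3#1, and 8.69 and 8.84 in shHDAC3#2. With shDNMT1#1 it was 9.01 and 8.56, and in shDNMT1#2 it was 8.14 and 8.09. All 8 knockdown arrays lay below both controls, with no share of all genes to set beside this. CDKN1B fell to 50.3% of control in DNMT1 knockdown (-0.99 ± 0.11 SE, adjusted p = 8.1e-07) and to 70.5% in HDAC3 knockdown (-0.50 ± 0.11 SE, adjusted p = 0.0014). By hairpin it was called with shHDAC3#2 (-0.68, adjusted p = 0.00051), shDNMT1#1 (-0.66, adjusted p = 0.0011) and shDNMT1#2 (-1.33, adjusted p = 5.2e-08), and was at -0.33 (adjusted p = 0.051) with shHDAC3#1. The DNMT1 hairpins differed from each other by -0.67 ± 0.12 SE (shDNMT1#2 minus shDNMT1#1, adjusted p = 0.00058). The HDAC3 call was lost after a further quantile normalization (-0.22, adjusted p = 0.076) and without shLuc replicate 1 (-0.39), and the value was 0.06 with the array SD as a covariate, which also ended the DNMT1 call (-0.40, adjusted p = 0.51). Only 1 probe set read the gene.

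CDKN1C, an imprinted gene whose product p57 is the third Cip/Kip inhibitor, was read by 5 probe sets that did not move together. The leading one, of a kind that can cross-hybridize, was at 7.97 and 8.16 in shLuc, 8.46 and 8.60 in shDNMT1#1, and 8.18 and 8.19 in shDNMT1#2. With it, CDKN1C rose in DNMT1 knockdown (0.29 ± 0.10 SE, adjusted p = 0.041), and was called with shDNMT1#1 (0.46, adjusted p = 0.011) and not with shDNMT1#2 (0.12, adjusted p = 0.45). That call was lost under 13 of 23 alternative settings. In HDAC3 knockdown it was at 0.20 (adjusted p = 0.16).

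Another CDKN1C probe set, the one with a mean of 7.79, gave the widest range within the family. Its log2 signal was 8.25 and 8.01 in shLuc, 6.32 and 6.57 in shHDAC3#1, and 8.02 and 8.31 in shHDAC3#2. It stood, in shDNMT1#1, at 8.79 and 8.40, and in shDNMT1#2 it was 7.58 and 7.70. The shHDAC3#1 arrays stood more than a log2 unit below every other array, while shHDAC3#2 overlapped the controls. In a fit over all 41097 single-symbol probe sets its change was -1.68 ± 0.13 SE with shHDAC3#1 (adjusted p = 2.8e-08), 0.46 with shDNMT1#1 (adjusted p = 0.044) and -0.49 with shDNMT1#2 (adjusted p = 0.013). The 4 other CDKN1C probe sets were between -0.04 and 0.44 with shHDAC3#1. That group also had the largest 3' excess of ACTB, and the part of RNA integrity was not tested. The same limit holds for other genes whose leading probe sets were lowest there, among them CDKN2A, RBL2, SKP2, RBBP4, HDAC2, KLF6 and SP1. The sources used here do not say which transcripts each probe set reads, so the change of CDKN1C with shHDAC3#1 depends on the probe set, and the direction of its mean HDAC3 change does too (-0.82 with the probe set of mean 7.79).

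Both INK4 genes moved by less than 0.6 (log2) with every hairpin. CDKN2A, which encodes p16 and, from another first exon, ARF, was at 8.56 and 8.48 in shLuc, 8.13 and 8.14 in shHDAC3#1, and 8.48 and 8.52 in shHDAC3#2. It was at 8.28 and 8.39 in shDNMT1#1 and at 8.28 and 8.17 in shDNMT1#2. The shHDAC3#1 arrays and all 4 DNMT1 arrays lay below both controls by less than 0.5. CDKN2A was called in DNMT1 knockdown (-0.25 ± 0.08 SE, adjusted p = 0.034) and with shHDAC3#1 (-0.39, adjusted p = 0.0042), but not in HDAC3 knockdown (-0.20, adjusted p = 0.079). Its 2 other probe sets were at -0.01 and 0.07 in DNMT1 knockdown and at 0.26 and 0.09 in HDAC3 knockdown, and the DNMT1 call was lost under 15 of 23 settings. No increase of CDKN2A was called with either DNMT1 hairpin or with either probe set beside the leading one.

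CDKN2D, which encodes p19, was at 6.76 and 6.77 in shLuc, 7.14 and 7.53 in shHDAC3#1, and 6.88 and 6.92 in shHDAC3#2. The shDNMT1#1 arrays gave 6.90 and 7.25, and in shDNMT1#2 it was 6.88 and 6.61. All 4 HDAC3 arrays lay above both controls, and the shDNMT1#2 arrays lay on either side of them. CDKN2D rose in HDAC3 knockdown (0.35 ± 0.12 SE, adjusted p = 0.038), with shHDAC3#1 at 0.57 (adjusted p = 0.0036) and shHDAC3#2 at 0.14 (adjusted p = 0.6). This call was lost under 12 of 23 settings, among them leaving out either shLuc array. Its second probe set was at 0.47 with shHDAC3#1 (adjusted p = 0.032) and at 0.27 in HDAC3 knockdown (adjusted p = 0.17). Between the HDAC3 hairpins, the higher CDKN2D values, like those of CDKN1A, were those of shHDAC3#1. That group had the largest 3' excess of ACTB, whose part was not tested.

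CDKN3 encodes a phosphatase that acts on CDK2 and is most abundant in dividing cells. Its log2 signal was 7.14 and 6.98 in shLuc, 7.04 and 7.13 in shHDAC3#1, and 5.40 and 5.38 in shHDAC3#2. In shDNMT1#1 it was 6.80 and 6.75, and in shDNMT1#2 it was 5.83 and 6.04. The second hairpin of each target gave low values, and shHDAC3#1 overlapped the controls. CDKN3 fell to 31.4% of control with shHDAC3#2 (-1.67 ± 0.11 SE, adjusted p = 2e-09) and to 45.8% with shDNMT1#2 (-1.13 ± 0.11 SE, adjusted p = 1.7e-07). It was at 0.02 (adjusted p = 0.89) with shHDAC3#1 and at -0.29 (adjusted p = 0.13) with shDNMT1#1. Both differences between hairpins were called: -1.70 for shHDAC3#2 minus shHDAC3#1 (adjusted p = 8.1e-10) and -0.84 for shDNMT1#2 minus shDNMT1#1 (adjusted p = 1.8e-05). The mean changes of -0.82 in HDAC3 and -0.71 in DNMT1 knockdown therefore stand for unequal hairpins. The other CDKN3 probe set was at -1.65 with shHDAC3#2 and -1.47 with shDNMT1#2. The mitotic kinase CDK1, chosen after its values were seen, was at -0.17 and -1.45 with the HDAC3 hairpins and at -0.62 and -1.92 with the DNMT1 hairpins. The cyclin CCNA2 was at -0.54 and -1.43, and at -1.41 and -1.53, so that with DNMT1 hairpins its values lay closer together.

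**Figure D4:**
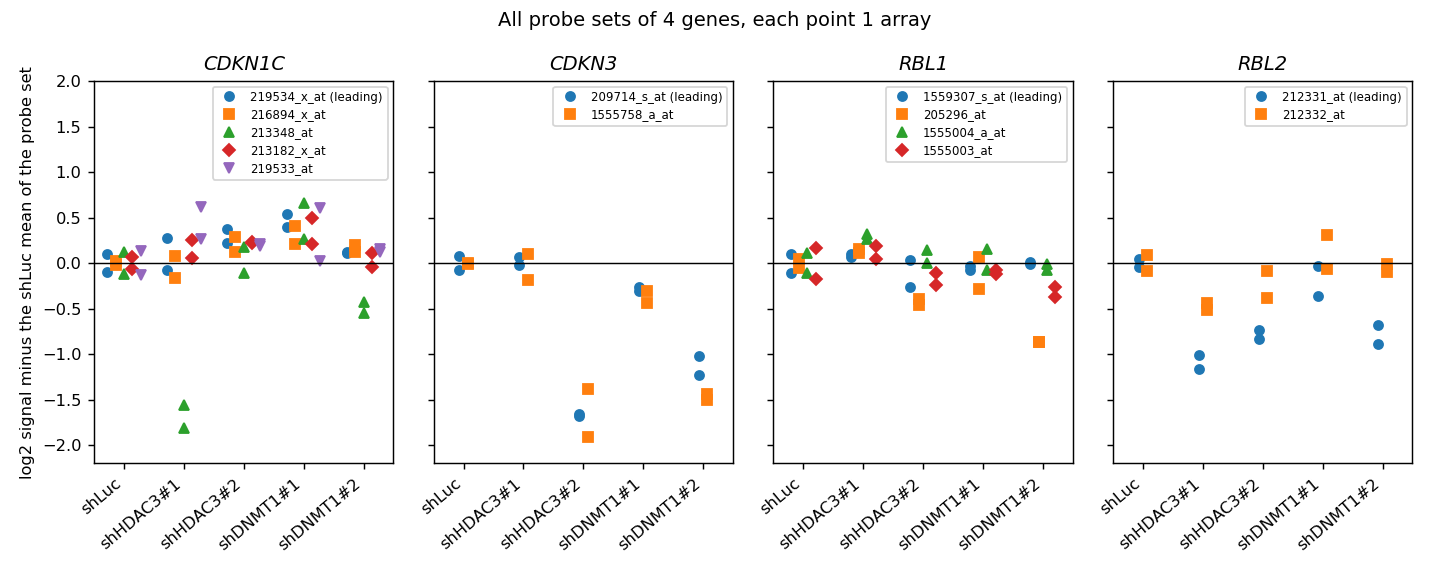
Log2 signal minus the shLuc mean of the same probe set (y axis) for every probe set of CDKN1C, CDKN3, RBL1 and RBL2 in the 5 groups (x axis); each point is 1 array. The CDKN3 probe sets move together, while the CDKN1C probe set with a mean of 7.79 (triangles pointing up) lies apart from the 4 others in shHDAC3#1.

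RB1, the retinoblastoma protein that is the main substrate of CDK4 and CDK6, was at 8.17 and 7.81 in shLuc, 7.44 and 7.74 in shHDAC3#1, and 7.04 and 7.21 in shHDAC3#2. With shDNMT1#1 it was 7.77 and 7.13, and in shDNMT1#2 it was 6.64 and 7.0. All 8 knockdown arrays lay below both controls, the nearest at 7.77 against 7.81. RB1 fell to 55.3% of control in DNMT1 knockdown (-0.86 ± 0.15 SE, adjusted p = 0.00019) and to 64.5% in HDAC3 knockdown (-0.63 ± 0.15 SE, adjusted p = 0.0033). It was called with shHDAC3#2 (-0.86, adjusted p = 0.0011) and shDNMT1#2 (-1.17, adjusted p = 2e-05), and was at -0.40 (adjusted p = 0.086) and -0.54 (adjusted p = 0.051) with the first hairpin of each target. A second, dimmer RB1 probe set with a mean of 4.71 was at -0.26 (adjusted p = 0.1) in HDAC3 and -0.34 (adjusted p = 0.032) in DNMT1 knockdown. The HDAC3 call was lost without shLuc replicate 1 (-0.46), and the array SD as a covariate brought the value to 0.03 in HDAC3 and to -0.17 (adjusted p = 0.94) in DNMT1 knockdown.

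RBL2 encodes p130, the pocket protein of resting cells and a subunit of the DREAM repressor complex. Its log2 signal was 8.52 and 8.43 in shLuc, 7.31 and 7.47 in shHDAC3#1, and 7.64 and 7.74 in shHDAC3#2. It stood, in shDNMT1#1, at 8.44 and 8.11, and in shDNMT1#2 it was 7.79 and 7.59. The HDAC3 and shDNMT1#2 arrays lay clear of the controls, and shDNMT1#1 overlapped them. RBL2 fell to 52.3% of control in HDAC3 knockdown (-0.94 ± 0.10 SE, adjusted p = 7.4e-07), with both hairpins (-1.09, adjusted p = 4.3e-07, and -0.78, adjusted p = 4.9e-05). In DNMT1 knockdown it fell to 71.0% (-0.49 ± 0.10 SE, adjusted p = 0.001), called with shDNMT1#2 (-0.79, adjusted p = 2.4e-05) and not with shDNMT1#1 (-0.20, adjusted p = 0.32). The second RBL2 probe set, at a mean of 6.44, was called with shHDAC3#1 (-0.48, adjusted p = 0.015) and not with shHDAC3#2 (-0.23, adjusted p = 0.37). It was lower in HDAC3 knockdown (-0.36, adjusted p = 0.04) and at 0.03 (adjusted p = 0.86) in DNMT1 knockdown. The decrease in DNMT1 knockdown thus rested on the leading probe set, and it was not called without shLuc replicate 1 (-0.45). With the array SD as a covariate RBL2 was at -0.46 (adjusted p = 0.43) in HDAC3 and 0.00 in DNMT1 knockdown.

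RBL1, which encodes p107 and is itself induced in cycling cells, ranged only from 4.98 to 5.35 over the 10 arrays with its leading probe set. Its change was -0.02 in HDAC3 (95% interval -0.25 to 0.21) and -0.03 in DNMT1 knockdown (-0.26 to 0.20). A second probe set, with a mean of 4.85, was at 5.05 and 5.15 in shLuc and at 4.23 in both shDNMT1#2 arrays. It was called lower in DNMT1 knockdown (-0.49 ± 0.12 SE, adjusted p = 0.0058) and with shDNMT1#2 (-0.87 ± 0.13 SE, adjusted p = 7.9e-05), but not in HDAC3 knockdown (-0.15, adjusted p = 0.41). It leads when probe sets that can cross-hybridize are left out, and RBL1 is then called in DNMT1 knockdown (-0.49, adjusted p = 0.005). The array's median was 5.387 to 5.473, so both probe sets were dim, and RMA values near background understate changes.

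Counted by hairpin, 4 members were called with shHDAC3#1 and 4 with shHDAC3#2, where 24.4% and 10.9% of all genes were called. With shDNMT1#1 3 were called and with shDNMT1#2 6, where 8.15% and 26.8% of all genes were called. Between the HDAC3 hairpins 4 of 9 differed (12.6% of all genes), and between the DNMT1 hairpins 5 of 9 differed (12.0% of all genes). With leading probe sets, RBL2 fell with both HDAC3 hairpins, and CDKN1A rose and CDKN1B fell with both DNMT1 hairpins. No other member was called in 1 direction with both hairpins of a target. The second RBL2 probe set was called lower with shHDAC3#1 only.

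The genes around the inhibitors were read from 5 lists. The alternative settings, the random hairpin block among them, were not counted for these lists. Of all genes, 15.3% fell and 3.96% rose in HDAC3 knockdown (median 0.05). In DNMT1 knockdown 13.5% of all genes fell and 6.66% rose (median 0.07). Of 15 cyclins, CDKs and their activators, 9 fell and 0 rose in HDAC3 knockdown (median -0.32). In DNMT1 knockdown 9 fell and 0 rose (median -0.35). By hairpin, 4 fell with shHDAC3#1 and 8 with shHDAC3#2, where 24.4% and 10.9% of all genes were called in either direction. With shDNMT1#1 5 fell and CCND2 rose, and with shDNMT1#2 9 fell and CCND1 rose. There 8.15% and 26.8% of all genes were called. The largest changes were those of the S phase and mitotic cyclins CCNA2 (-0.98 and -1.47) and CCNB1 (-0.87 and -1.22) and of their kinase CDK1 (-0.81 and -1.27), each value for HDAC3 and then DNMT1 knockdown. Of 10 E2F and DP factors, 5 fell and 1 rose in HDAC3 knockdown (median -0.25), and 4 fell and 1 rose in DNMT1 knockdown (median -0.25). The repressor E2F8 (-1.30 and -1.67) and the activator E2F2 (-0.68 and -0.94) led. The other E2F2 probe sets were at -0.02 and -0.14, and at -0.32 and -0.68. TFDP2, named after its values were seen, was the member that rose (0.34 and 0.31). Its other probe sets lay between 0.09 and 0.18 in HDAC3 and between 0.14 and 0.32 in DNMT1 knockdown. By hairpin TFDP2 was called with shHDAC3#2 only (0.43, adjusted p = 0.02). Among 7 subunits and partners of the DREAM complex, 4 fell and 1 rose in HDAC3 knockdown (median -0.33) and 2 fell in DNMT1 knockdown (median -0.14). The histone-binding subunit RBBP4 (-0.69 and -0.42) and the mitotic factor FOXM1 (-0.51 and -0.58) fell in both, and LIN37, named after its values were seen, rose in HDAC3 knockdown (0.25, adjusted p = 0.024), where its other, dimmer probe set was at -0.18.

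Genes that control the stability of p21 and p27 were led by SKP2, the F-box protein that marks p27 for degradation. Of 14 such genes 7 fell in HDAC3 knockdown (median -0.22), 6 fell in DNMT1 knockdown (median -0.20) and 0 rose in either. Of all genes, 15.3% and 13.5% fell in these knockdowns, and 3.96% and 6.66% rose. SKP2 fell by 1.26 on the log2 scale in HDAC3 knockdown (-1.26 ± 0.10 SE, adjusted p = 2.2e-08) and by 1.36 in DNMT1 knockdown (-1.36 ± 0.10 SE, adjusted p = 7.3e-09). It was called lower with each of the 4 hairpins, at -2.00, -0.51, -1.39 and -1.32 for shHDAC3#1, shHDAC3#2, shDNMT1#1 and shDNMT1#2. Its 2 other probe sets lay between -1.13 and -0.47 over the 4 hairpins. CKS1B, the cofactor of SKP2, was at -0.57 and -0.68. DTL, which directs p21 to degradation in S phase, was at -0.84 and -1.15, and PCNA, its platform on DNA, at -0.68 and -0.57. The transcripts of p27 and of the ligase that degrades it thus were both lower in each knockdown.

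Of 21 regulators of CDKN1A and CDKN1B transcription, 18 were measured. In HDAC3 knockdown 6 fell and 0 rose (median -0.05), where 15.3% and 3.96% of all genes did. In DNMT1 knockdown 7 fell and 1 rose (median -0.06), where 13.5% and 6.66% of all genes did. SP1, which binds GC boxes such as those in the CDKN1A window above, was at -0.59 and -0.43, and its relative SP3 at -0.56 and -1.19. The other SP1 probe sets did not move alike, at -0.64 and -0.52, -0.16 and -0.07, and 0.08 and 0.24, and the 4 other SP3 probe sets lay between -0.27 and 0.36. KLF6 was at -0.64 and -0.38 and HDAC2, another deacetylase, at -0.58 and -0.48, with its dimmer probe set at 0.04 and 0.06. The 4 other KLF6 probe sets lay between -0.97 and -0.13 in HDAC3 and between -0.56 and 0.11 in DNMT1 knockdown. MDM2, the p53 antagonist that, like CDKN1A, is induced by p53, fell in both knockdowns (-0.28 and -0.49). The other MDM2 probe sets lay between -0.80 and 0.12 in DNMT1 knockdown. TP73, named after its values were seen, was the one that rose in DNMT1 knockdown (0.28, adjusted p = 0.043). Its other probe sets were both at 0.10 there.

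The 5 genes whose signals followed CDKN1A most closely over the 10 arrays, of 11286 with a mean of at least 6, were RBP5 (Pearson's r 0.944), LAMA2 (0.913), SERINC5 (0.910), ZNF91 (0.909) and PAK5 (0.907). The arrays share a cell line and normalization, and only 5 groups are behind the 10 points. SERINC5 was 0.77 higher in DNMT1 knockdown, while the others were between 0.22 and 0.36 there. The genes were chosen by likeness to CDKN1A, which was highest on the DNMT1 arrays. A rise there thus follows in part from the choice and is no separate result. Over the 8 knockdown arrays 1 of these 5 genes stayed among the closest 5, and over the 5 group means 0 did.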

How the data were processed

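RNA of MM.1S cells was measured on 10 Affymetrix 3' arrays in 5 groups of 2. For 54675 probe sets the deposited tables hold log2 signals, which the authors obtained by RMA, per the submitters' processing notes. The sources used here give neither its version nor whether all arrays shared 1 run, and the scale was read off the values. Probe sets were named by the platform annotation: 41097 had 1 symbol, 1801 several and 11777 none, and only the first were used.

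Each of 19775 genes was read by its brightest probe set (mean over all arrays). limma 3.58.1 in R 4.3.3 (lmFit, eBayes with a trend) was fitted to all 5 groups with 5 residual degrees of freedom; tests were two-sided, with Benjamini-Hochberg adjustment over all genes and a threshold of 0.05. SEs are limma's, with n = 4 knockdown and 2 control arrays, or 2 and 2 for a hairpin. Probe sets were fitted likewise. The test was checked on simulated data. The number of arrays limits the precision. Replicate numbers did not pair the arrays (correlations of deviations from -0.343 to 0.266).

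The members, lists, tests and alternatives were chosen with earlier results of these data known. Named were all members, both targets, up to 3 called genes per list and knockdown with the largest change, and the 5 genes most like CDKN1A, symbols starting with LOC left out. Markers of T cells, myeloid, erythroid, epithelial cells and fibroblasts had list means between 5.04 and 7.07. A planned comparison of protein sequences was not made. As alternatives, dim probe sets were dropped, a gene's probe sets averaged, or those prone to cross-hybridization left out; others were quantile normalization, median centring, eBayes without the trend, array weights, fewer arrays, a replicate block, a random hairpin block, the array SD as a covariate and leaving out each array.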

Additional observations from a re-analysis of the deposited data

Results flagged for a closer look

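Hairpins of 1 target differed from each other for several members, each tested as a contrast of the same limma model with adjustment over all genes. For shHDAC3#2 minus shHDAC3#1 the log2 differences were -0.60 for CDKN1A, 0.36 for CDKN2A, -0.43 for CDKN2D and -1.70 for CDKN3. For shDNMT1#2 minus shDNMT1#1 they were 0.33 for CDKN1A, -0.67 for CDKN1B, -0.84 for CDKN3, -0.63 for RB1 and -0.59 for RBL2. CDKN3 was lower with the second hairpin of each target, and the sign of the CDKN1A difference was opposite in the 2 targets.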

How the results depend on the processing

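Of 9 measured members, the 6 called in HDAC3 knockdown became 0 with the hairpin as a random block (0.369% of all genes called) and 0 with the array SD as a covariate (0.576%), and 3 to 6 when single arrays were left out. The 7 called in DNMT1 knockdown became 4 with probe sets averaged by gene (16.1% of all genes called), 4 of 7 without probe sets that can cross-hybridize (16.3%), 0 with the random block (0.157%), 1 with the covariate (0.602%), 3 with shDNMT1#1 alone (8.15%) and 4 to 7 without single arrays. The 3 called between the knockdowns became 5 of 7 without cross-hybridizing probe sets (7.89%), 0 with the random block (0.0303%) and 3 to 4 without single arrays. Leaving out cross-hybridizing probe sets removes CDKN1A and CDKN3, for which no other kind of probe set is named. CDKN1A kept its side of the threshold for each hairpin against shLuc and between the HDAC3 hairpins under every alternative run, while the difference between the DNMT1 hairpins was not called without the trend (0.33, adjusted p = 0.057) and lay between 0.29 and 0.37 without single arrays. With shHDAC3#2 CDKN1A was at 0.19 after quantile normalization (adjusted p = 0.056) and at 0.19 with the covariate (adjusted p = 0.74). The random block was not run for single hairpins. With the random block CDKN1A was at 1.15 (adjusted p = 0.054) in DNMT1 knockdown.

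In HDAC3 knockdown no change was called for CDKN1A with shHDAC3#2 alone (-0.01, adjusted p = 0.96) or for CDKN3 with shHDAC3#1 alone (0.02, adjusted p = 0.89). Without cross-hybridizing probe sets the direction of CDKN1C turned in HDAC3 knockdown (-0.82, adjusted p = 2.8e-05). In DNMT1 knockdown CDKN1C was then not called (-0.01, adjusted p = 0.94). With the array SD as a covariate CDKN1B (0.06) and RB1 (0.03) in HDAC3 and RBL2 (0.00) in DNMT1 knockdown lost their calls and their direction. The cause was not tested. Lower genes were 79.4% of all called in HDAC3 knockdown, 55.6% after quantile normalization and 88.7% after median centring; in DNMT1 knockdown the shares were 67.0%, 53.8% and 85.4%. The replicate block left 6 members called in HDAC3 knockdown, 5 in DNMT1 knockdown and 3 between them; the calls it ended were those of CDKN1C (0.29, adjusted p = 0.056) and CDKN2A (-0.25, adjusted p = 0.053) in DNMT1 knockdown. Of the 5 genes most like CDKN1A, 1 remained over 8 arrays and 0 over 5 group means. RMA signals near background limit what RBL1 can show.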
